A study of Mus musculus with 5 samples.

Results

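Genes of the lipid droplet surface and of triglyceride lipolysis were followed in the liver of 5 inbred mouse strains. The group was set by name and holds 10 genes, of 18194 genes with a single annotation on the array: the droplet coat genes Plin2 and Plin5, the CIDE genes Cideb and Cidec, the droplet formation genes Fitm1 and Fitm2, the lipase genes Pnpla2 and Pnpla3, and the lipase regulators Abhd5 and G0s2. All probe sets annotated to these symbols were taken, 14 of 45101. A probe set is a group of short probes that reports 1 transcript or several related ones. The strains were RIIIS/J, NZW/LacJ, FVB/NJ, C57BL/6J and BALB/CByJ, and for each strain 1 Affymetrix array carried liver RNA pooled from 3 males aged 10 weeks. The animals had no treatment and no engineered allele is named. The groups therefore differ by strain alone as far as the labels go, and the time of day of collection was not given in the sources used here. With 1 pooled array per strain there was no spread between animals and no test was possible, so the values below are a description of these 5 arrays.

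Hepatocytes store triglyceride in droplets that bud from the endoplasmic reticulum, and perilipins cover the droplet surface and limit access of lipases. Pnpla2, also called ATGL, takes the first fatty acid from triglyceride. Its activity is raised by the co-activator Abhd5, also called CGI-58, and is blocked by the small protein G0s2. The fatty acids released are oxidised, re-esterified or used for lipoprotein secretion, and several genes of the group are known targets of the fatty acid receptor PPAR-alpha.

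The RNA was that of liver on all 5 arrays, and 2 arrays carried further cell types. All 5 measured hepatocyte markers were detected on every array, with a summed intensity of 200025 to 223382. In RIIIS/J the 5 measured pancreatic acinar genes summed to 45575 against 701.6 to 1283 in the other strains, and all 5 were at least 2-fold above them. In FVB/NJ the 4 measured B cell genes summed to 5045 against 43.5 to 53.9, and the 3 detected ones (Ms4a1, Cd79a and Cd79b) were all at least 2-fold higher, while Pax5 was under the detection floor everywhere. Of 4 measured erythroid genes 3 were likewise higher in FVB/NJ, among them Slc4a1 (1096 against 13.0 to 13.3), and the list summed to 4120 against 1062 to 3503. Alas2, the other, made up most of that sum, at 2861 in FVB/NJ against 1032 to 3444. The macrophage genes Marco (172 against 5.40 to 8.27) and Timd4 (56.5 against 8.61 to 10.8), of 6 measured, and the stellate cell genes Acta2 (823 against 58.1 to 77.9) and Pdgfrb (446 against 184 to 213), of 6 measured, were also at least 2-fold higher there. The macrophage list summed to 1656 in FVB/NJ against 1247 to 2992, and the stellate list to 2578 against 1126 to 2076. The part of these cells in the results for RIIIS/J and FVB/NJ was not tested. Of 5 measured adipocyte markers, Lep and Retn were under the floor on every array and Adipoq was above it on the FVB/NJ array only (9.20). The detected Fabp4 (228 to 270) and Lipe (32.0 to 44.3) also gave the list nearly all of its summed intensity of 274 to 326. Fewer cells of a type and less RNA per cell cannot be told apart in whole tissue.

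A detection floor was set at an intensity of 8.22, which 95% of the signals of 83 taste, vomeronasal and olfactory receptor probe sets did not pass, since liver should lack these transcripts. By it 8 of the 10 genes were detected, each on all 5 arrays, while Cidec and Pnpla3 were under the floor on every array. For 6 of these 8 genes the highest array was at least 2-fold over the lowest (Plin2, Plin5, Fitm1, Pnpla2, G0s2 and Abhd5), where 30.2% of the 12040 detected genes on the array had such a spread. The median spread was 1.39 on the log2 scale for the 8 genes, or 2.62-fold, and 0.66 for all detected genes, or 1.58-fold. The 10 genes were chosen with earlier results of these data known, so the group is not independent of these values. Only Fitm1 was at least 2-fold away from the nearest other strain, 1 gene of 8, and 11.9% of all detected genes were so in some strain.

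**Figure D1:**
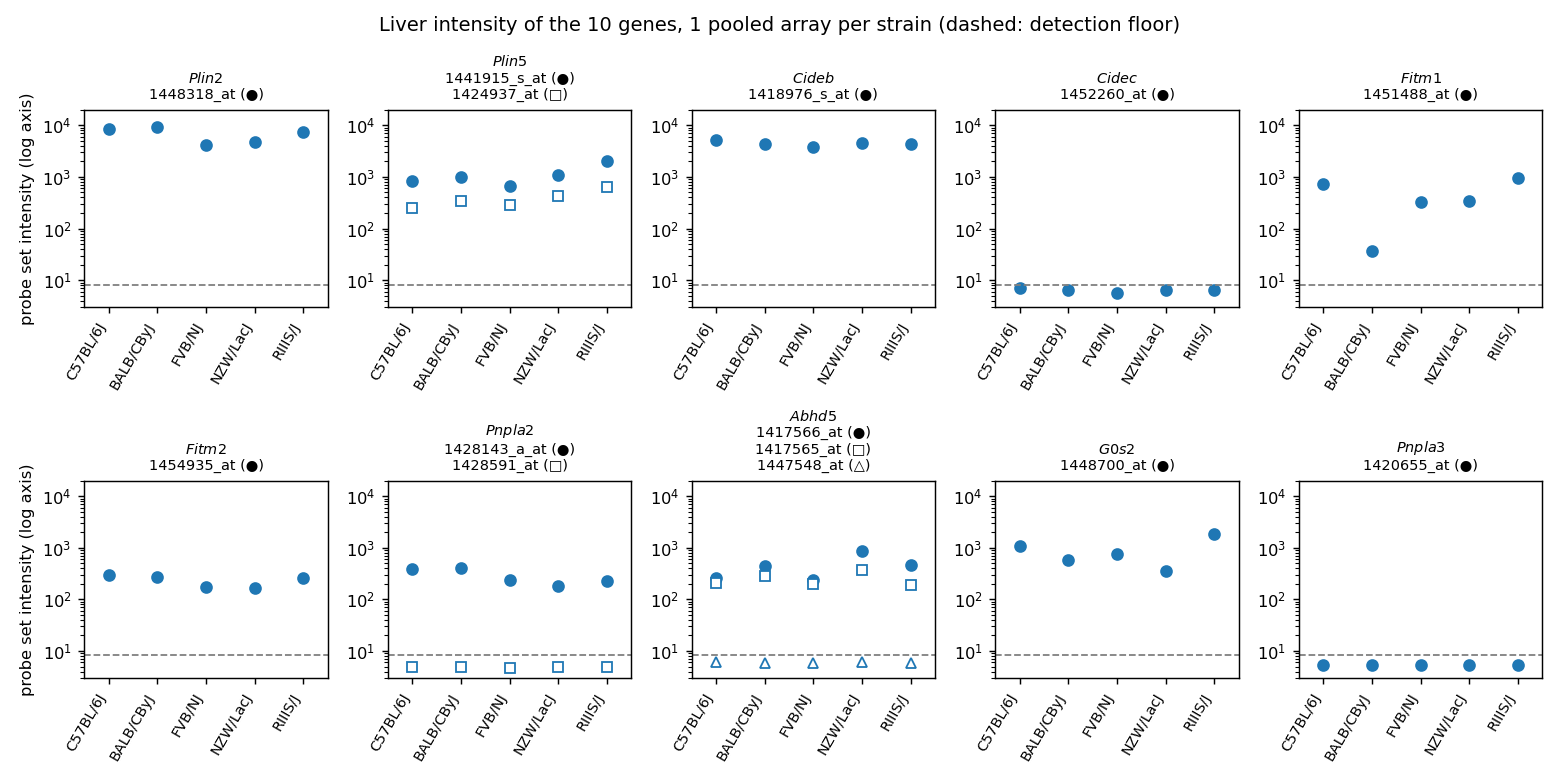
Probe set intensity (log axis) of the 10 genes in the 5 strains, 1 pooled array each; filled circles mark the probe set used for the gene, open symbols its other probe sets, and the dashed line the floor of 8.22. Fitm1 drops to 36.7 in BALB/CByJ, and Cidec and Pnpla3 lie under the floor in all strains.

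**Figure D2:**
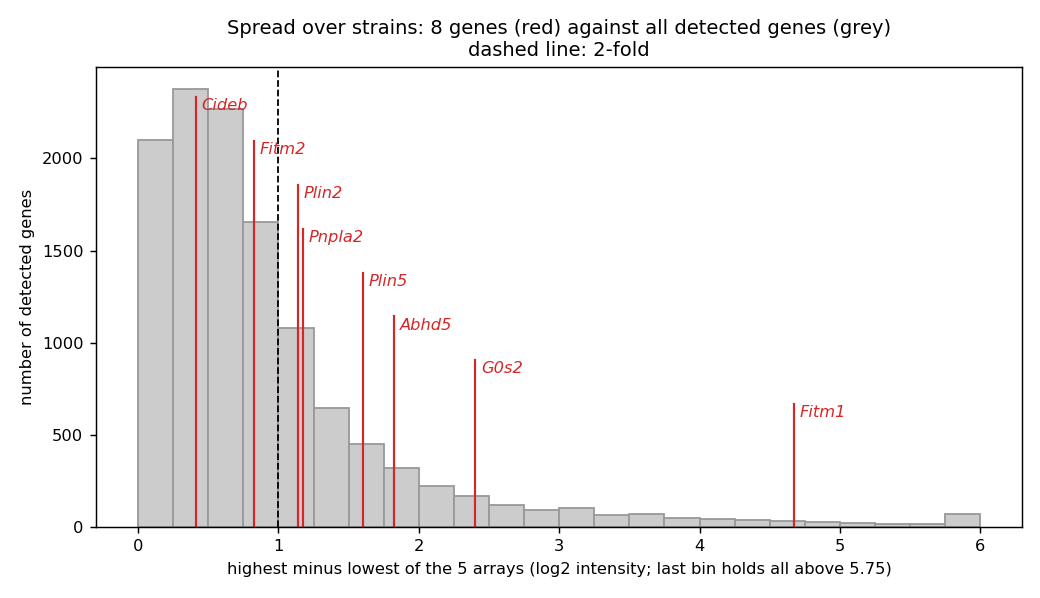
Number of detected genes (grey bars) by the difference between their highest and lowest array on the log2 scale, with the 8 detected genes of the group as red lines and 2-fold as a dashed line. Cideb (0.41) and Fitm2 (0.83) lie under 2-fold, and Fitm1 (4.67) and G0s2 (2.40) lie farthest out.

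Fitm1 varied most. It encodes an endoplasmic reticulum protein of droplet formation that is best known from skeletal and heart muscle. Its intensity was 746 in C57BL/6J, 36.7 in BALB/CByJ, 332 in FVB/NJ, 342 in NZW/LacJ and 936 in RIIIS/J. The strains fell into 3 levels, with C57BL/6J and RIIIS/J high, FVB/NJ and NZW/LacJ close together, and BALB/CByJ far below. The step from BALB/CByJ to the next strain was 9.04-fold, that from NZW/LacJ to C57BL/6J 2.18-fold, and those within the high and middle levels 1.25-fold and 1.03-fold. From highest to lowest the spread was 25.5-fold, a value reached or passed by few genes on the array, since it stood at percentile 98.7 of all detected genes. Without the BALB/CByJ array the spread was 2.82-fold, and without RIIIS/J it was 20.3-fold. BALB/CByJ still gave a signal above the floor, and with the floor raised to a stricter one (28.2, percentile 99) it remained above it. Among all detected genes 0.432% were at least 2-fold below each other strain in BALB/CByJ, and Fitm1 was the only one of the 8 genes. Of 7 measured skeletal muscle markers 6, among them Acta1, Ckm and Mb, were under the floor on all arrays. The other, Myh4, was above the floor on all 5 arrays but under the stricter one, at 10.97 to 11.9. The list summed to 48.5 to 51.6. The genes on both sides of Fitm1 on chromosome 14 varied far less. Dcaf11 read 5433 in NZW/LacJ to 8687 in RIIIS/J, with 6429 in C57BL/6J and 5761 in BALB/CByJ. Psme1, a proteasome activator gene, was also lowest in BALB/CByJ, but only at 1568 against 1783 in the other strains. Only 1 probe set reports Fitm1, so no other could be set beside it.

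The promoter of Fitm1 is shown because the gene differed most between the strains. The 300 bases are from RefSeq, build GRCm38.p6, chr14:55575424-55575723 on the plus strand, and run from 250 before the transcript start to 50 after it. The assembly is of C57BL/6J, and no sequence of the other strains was used here.
Fitm1: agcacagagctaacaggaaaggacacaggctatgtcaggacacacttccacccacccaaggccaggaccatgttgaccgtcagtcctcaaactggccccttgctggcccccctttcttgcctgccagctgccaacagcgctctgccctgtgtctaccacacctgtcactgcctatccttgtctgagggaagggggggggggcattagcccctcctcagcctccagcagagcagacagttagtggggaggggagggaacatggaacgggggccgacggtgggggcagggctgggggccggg
It holds neither motif searched, which were DR1, the direct repeat of the kind bound by PPAR (a pair of AGGNCA half-sites with 1 base between them), and CACGTG, the E-box bound by clock and bHLH factors. Both strands were read. Among all 32851 promoters given by RefSeq, 0.381% held the repeat and 7.15% the E-box.

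Fitm2, the related gene expressed in most tissues, varied far less than Fitm1, with a spread at percentile 60.8 of all detected genes. It read 299.6 in C57BL/6J, 267 in BALB/CByJ, 176 in FVB/NJ, 169 in NZW/LacJ and 259 in RIIIS/J. C57BL/6J, BALB/CByJ and RIIIS/J lay within 1.16-fold, and FVB/NJ and NZW/LacJ lay below them, with 1.47-fold between RIIIS/J and FVB/NJ. The spread of 1.78-fold was the nearest to the 2-fold limit among genes that missed it. The low BALB/CByJ value of Fitm1 had no counterpart in Fitm2.

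Plin2, the main coat protein of hepatocyte droplets, was split into a higher and a lower level. It read 8588 in C57BL/6J, 9349 in BALB/CByJ, 4249 in FVB/NJ, 4675 in NZW/LacJ and 7568 in RIIIS/J. C57BL/6J, BALB/CByJ and RIIIS/J were high and FVB/NJ and NZW/LacJ low, the same division as for Fitm2. The gap between the levels was 1.62-fold, and steps within them were 1.09-fold, 1.14-fold and 1.10-fold. The spread of 2.20-fold was the one nearest above the 2-fold limit, and without the FVB/NJ array it was just under it, at 0.9998 on the log2 scale.

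The Plin2 promoter is shown because it was the only one of the group to hold either motif, among 12 promoter entries that cover all 10 genes. It is the minus strand of chr4:86670010-86670309 in GRCm38.p6, from RefSeq, and its capitals mark an E-box that begins 4 bases before the transcript start.
Plin2: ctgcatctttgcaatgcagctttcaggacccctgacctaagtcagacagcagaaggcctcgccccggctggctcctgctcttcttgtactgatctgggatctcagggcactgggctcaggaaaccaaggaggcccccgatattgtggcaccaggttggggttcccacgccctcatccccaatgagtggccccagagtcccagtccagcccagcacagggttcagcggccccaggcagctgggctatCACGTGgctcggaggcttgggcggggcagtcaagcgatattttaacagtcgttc
Over all promoters given by RefSeq 7.15% held an E-box, and 8.09% of all genes had a promoter with it. The match is a description of these letters and says nothing of factor binding. Clock genes differed widely between the arrays. Of 14 detected, 13 had a spread of at least 2-fold (30.2% of all detected genes). At least 2-fold from the nearest other strain were 7 (11.9% of all), or 4 with means of probe sets. Of the 7, 4 were lower in RIIIS/J, and 1 each was higher in RIIIS/J, NZW/LacJ and BALB/CByJ. Arntl read 156 in RIIIS/J and 68.1 in NZW/LacJ against 13.7 to 14.1. Dbp, a clock output factor, read 6439 in C57BL/6J, 8951 in BALB/CByJ, 4939.5 in FVB/NJ, 1023 in NZW/LacJ and 75.5 in RIIIS/J. RIIIS/J, lowest for Dbp, was among the strains with high Plin2, and NZW/LacJ, next lowest for Dbp, was among those with low Plin2. Any tie between clock genes and Plin2 or the other genes of the group was not tested.

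Plin5, a perilipin of oxidative tissues that ties droplets to mitochondria and binds both Pnpla2 and Abhd5, was highest in RIIIS/J on each of its probe sets. On the more intense one, 1441915_s_at, it read 824 in C57BL/6J, 979.8 in BALB/CByJ, 667 in FVB/NJ, 1109 in NZW/LacJ and 2024 in RIIIS/J. RIIIS/J was 1.83-fold above NZW/LacJ, and the other strains formed a graded series with steps of 1.13-fold to 1.24-fold. On 1424937_at the values in the same order were 252, 347, 280.2, 423 and 633. The RIIIS/J value was there 1.498-fold above NZW/LacJ, and the lowest strain was C57BL/6J and not FVB/NJ. Both probe sets thus had RIIIS/J, NZW/LacJ and BALB/CByJ in the same descending order and exchanged the other strains. The spread was 3.04-fold and 2.51-fold on these probe sets. Without the RIIIS/J array, which carried the acinar signal given above, it was 1.66-fold on the first. The _s_at ending marks probes that can match several transcripts. Plin4, the next gene on chromosome 17 on one side, was under the floor everywhere, and Lrg1, a secreted acute phase gene on the other, was lowest in RIIIS/J (1356 against 5607 to 11611), where Plin5 was highest.

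Cideb, which acts in droplet growth and in the loading of very low density lipoprotein, was the most even gene of the group. It read 5125 in C57BL/6J, 4429 in BALB/CByJ, 3846 in FVB/NJ, 4453 in NZW/LacJ and 4429 in RIIIS/J. The spread was 1.33-fold, which stood at percentile 30.2 of all detected genes. BALB/CByJ and RIIIS/J had exactly equal deposited values, as 29.1% of all probe sets had on at least 2 arrays. Cidec, the related gene of droplet fusion that is known to rise in fatty liver, read 5.61 to 7.00 on its only probe set, under the floor in all strains. A fold is not given for it, and a low probe set does not show that the transcript was absent.

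The lipase and its regulators moved in different ways. Pnpla2 read 386 in C57BL/6J, 405 in BALB/CByJ, 235 in FVB/NJ, 179 in NZW/LacJ and 227 in RIIIS/J. C57BL/6J and BALB/CByJ were within 1.05-fold of each other and stood 1.64-fold above the next strain, and the other strains lay within 1.31-fold. The spread was 2.26-fold, and 1.79-fold without the NZW/LacJ array. These values come from 1428143_a_at, whose ending marks probes shared by transcripts of 1 gene. The other probe set, 1428591_at, was under the floor on every array, at 4.66 to 4.97. Pnpla3, a lipase-related gene known to follow feeding through SREBP-1c, read 5.26 to 5.48 on its only probe set and was under the floor on every array.

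Abhd5, the co-activator, was highest in NZW/LacJ. On 1417566_at it read 265 in C57BL/6J, 441 in BALB/CByJ, 239.9 in FVB/NJ, 850.3 in NZW/LacJ and 457 in RIIIS/J. NZW/LacJ was 1.86-fold above the nearest strain, BALB/CByJ and RIIIS/J lay within 1.04-fold of each other, and C57BL/6J and FVB/NJ were low. On 1417565_at the values in the same order were 207, 286, 196, 376 and 189.96. NZW/LacJ was again highest, by 1.31-fold, while RIIIS/J went from the second highest strain to the lowest. The spread was 3.54-fold on the first probe set and 1.98-fold on the second. Without NZW/LacJ it was 1.91-fold on the first. A further probe set, 1447548_at, was under the floor everywhere (5.92 to 6.17).

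G0s2, the inhibitor, was lowest in NZW/LacJ, where Abhd5 was highest, and it was highest in RIIIS/J. It read 1075 in C57BL/6J, 573 in BALB/CByJ, 742 in FVB/NJ, 352 in NZW/LacJ and 1863 in RIIIS/J. RIIIS/J was 1.73-fold above C57BL/6J and NZW/LacJ was 1.63-fold below BALB/CByJ, with steps of 1.45-fold and 1.30-fold in between, so the strains formed a ladder without close neighbours. The spread of 5.29-fold stood at percentile 93.3 of all detected genes. It was 3.05-fold without RIIIS/J and 3.25-fold without NZW/LacJ. The adjacent gene Hsd11b1, for a glucocorticoid-activating enzyme, read 13662 in RIIIS/J and 22690.4 in NZW/LacJ, its lowest and highest arrays, the reverse of G0s2. The promoter of G0s2 is shown because the gene had the second largest spread. It is the minus strand of chr1:193273139-193273438 in GRCm38.p6, from RefSeq, and it holds neither motif.
G0s2: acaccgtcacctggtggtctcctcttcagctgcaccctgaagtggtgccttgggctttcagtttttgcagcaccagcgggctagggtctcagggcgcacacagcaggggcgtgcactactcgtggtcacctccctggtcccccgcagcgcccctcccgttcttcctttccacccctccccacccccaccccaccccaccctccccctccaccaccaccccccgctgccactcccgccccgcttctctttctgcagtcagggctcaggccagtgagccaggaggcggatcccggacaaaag

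**Figure D3:**
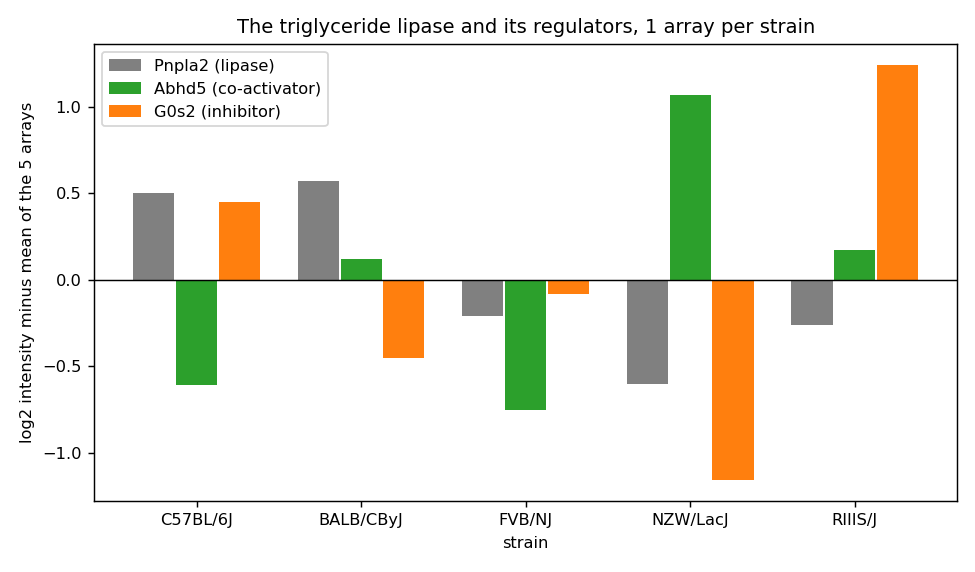
Log2 intensity minus the mean of the 5 arrays for the lipase gene Pnpla2, its co-activator Abhd5 and its inhibitor G0s2, 1 bar per gene and strain, without error bars because each strain has 1 array. NZW/LacJ has the highest Abhd5 (1.07) with the lowest G0s2 (-1.16), and RIIIS/J the highest G0s2 (1.24).

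The balance of co-activator and inhibitor was read as the deviation of Abhd5 from its mean over the arrays minus that of G0s2, on the log2 scale. This difference was -1.06 in C57BL/6J, 0.58 in BALB/CByJ, -0.67 in FVB/NJ, 2.23 in NZW/LacJ and -1.07 in RIIIS/J. NZW/LacJ stood highest and C57BL/6J and RIIIS/J were level at the low end. With the second Abhd5 probe set the values were -0.68, 0.70, -0.22, 1.80 and -1.59 in the same order, with NZW/LacJ still highest and RIIIS/J lowest. These are transcript signals, and neither lipase protein nor activity was measured. For Pnpla2 minus G0s2 the highest strain was BALB/CByJ (1.03) and the lowest RIIIS/J (-1.51), with NZW/LacJ at 0.56.

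**Figure D4:**
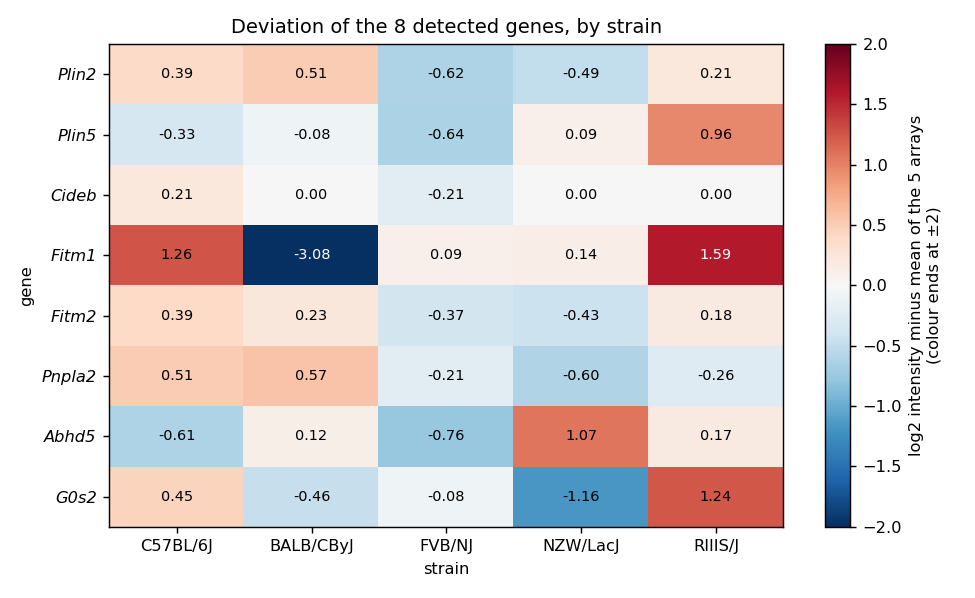
Log2 intensity minus the mean of the 5 arrays for the 8 detected genes (rows) in the 5 strains (columns), with the value in each cell and the colour ending at 2 in either direction. Each strain has its own mixture of signs, and FVB/NJ is at or under the mean for all genes but Fitm1 (0.09).

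By strain, the highest array of a gene was RIIIS/J for 3 of the 8 genes (Plin5, Fitm1 and G0s2), C57BL/6J for 2 (Cideb and Fitm2), BALB/CByJ for 2 (Plin2 and Pnpla2) and NZW/LacJ for 1 (Abhd5). FVB/NJ was highest for none and lowest for 4 (Plin2, Plin5, Cideb and Abhd5), and NZW/LacJ was lowest for 3 (Fitm2, Pnpla2 and G0s2). In FVB/NJ 1 of the 8 genes was above the mean of the other 4 strains, with a median difference of -0.36 on the log2 scale against -0.02 for all detected genes. In C57BL/6J and in RIIIS/J 6 of 8 were above it, with medians of 0.49 and 0.25 against 0.002 and -0.02. The share of all detected genes above that mean was not counted. Of 13 other detected droplet genes 2 were above it in FVB/NJ, 7 in C57BL/6J and 10 in RIIIS/J. No gene of the 8 was at least 2-fold above every other strain in any array, where 0.490% of all detected genes were in C57BL/6J, 0.789% in BALB/CByJ, 5.76% in FVB/NJ, 0.756% in NZW/LacJ and 0.955% in RIIIS/J. Apart from Fitm1 in BALB/CByJ none was at least 2-fold below every other strain, where 0.415% were in C57BL/6J, 0.532% in FVB/NJ, 0.714% in NZW/LacJ and 1.70% in RIIIS/J. Between pairs of strains, 1 to 4 of the 8 genes were at least 2-fold apart. C57BL/6J against NZW/LacJ had 4, with Fitm1, Pnpla2 and G0s2 higher and Abhd5 lower in C57BL/6J, where 7.12% of all detected genes were 2-fold apart. C57BL/6J against BALB/CByJ had 1, Fitm1 (4.80% of all), and FVB/NJ against RIIIS/J had 3, Plin5, Fitm1 and G0s2, all higher in RIIIS/J (16.3% of all). The same genes were higher in RIIIS/J than in BALB/CByJ (10.5% of all), and Fitm1 and G0s2 than in NZW/LacJ (7.15%), while Plin5 alone was 2-fold apart between RIIIS/J and C57BL/6J (8.95%). The others had 2 each: Plin2 and Fitm1 for C57BL/6J and FVB/NJ (10.7%) and for BALB/CByJ and FVB/NJ (10.9%), Pnpla2 and Fitm1 for BALB/CByJ and NZW/LacJ (8.17%), and G0s2 and Abhd5 for FVB/NJ and NZW/LacJ (14.3%). Each array enters 4 of these pairs, so the counts are not independent.

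As a rough measure of disagreement between probe sets, the deviations of a pair of the same gene were compared on each array. They differed by a median of 0.18 on the log2 scale over 4628 genes, with a 95th percentile of 0.82. The gap of Fitm1 in BALB/CByJ (-3.18), of Abhd5 in NZW/LacJ (0.89) and of Plin5 in RIIIS/J (0.87) to the nearest strain were above that percentile, and that of G0s2 in RIIIS/J (0.79) was below it. For Abhd5 and Plin5 this held on the more intense probe set only. On the other detected probe set the gaps were 0.39 and 0.58, and with the mean of the detected probe sets 0.67 and 0.73, all below the percentile. The measure compares a pair of probe sets on the same array, while a gap compares a pair of arrays on the same probe set. The percentile is therefore no noise limit for the gaps. The measure covers probe sets and not animals.

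Other genes of the droplet surface were mostly even. Of 13 detected ones, 2 had a spread of at least 2-fold and 1 was apart from every other strain (30.2% and 11.9% of all detected genes). That gene was Hsd17b13, a droplet-bound dehydrogenase, at 195 in FVB/NJ against 8338 to 10015. Hsd17b11, its relative, read 3524 in NZW/LacJ against 6042 to 7158. Plin3, the perilipin found in most cells, read 239 in FVB/NJ and 348 to 408 elsewhere. Nsdhl, a sterol synthesis enzyme that also lies on droplets, ranged from 1681 to 3171. Plin4 and Cidea, which are known from fat and muscle, were under the floor on every array.

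Among 15 detected lipases and esterases 6 had a spread of at least 2-fold and 2 were apart (30.2% and 11.9% of all detected genes). Lpl, lipoprotein lipase, was highest in BALB/CByJ (3414) and lowest in FVB/NJ (318), with 895 to 1590.5 in the other strains. Lipg, endothelial lipase, read 13.9 in NZW/LacJ against 49.7 to 119. Ddhd2, a phospholipase and triglyceride hydrolase gene, read 159 in NZW/LacJ and 180.0 in RIIIS/J against 364 to 587. Ces1g, a carboxylesterase gene, read 2355 in RIIIS/J to 5183 in NZW/LacJ, and Aadac, an esterase of the endoplasmic reticulum, 6276 in FVB/NJ to 13380 in C57BL/6J. Mgll, which completes lipolysis as monoglyceride lipase, read 1624 in NZW/LacJ against 2155 to 2773. Lipe, hormone-sensitive lipase, was low and even at 32.0 to 44.3.

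Triglyceride synthesis had 11 detected genes, 5 with a spread of at least 2-fold and 3 apart (30.2% and 11.9% of all detected genes). Gpat3, a glycerol phosphate acyltransferase, read 24.97 in C57BL/6J against 201 to 301. Lpin1, a phosphatidate phosphatase that is also rhythmic and fasting-induced, read 60.6 in RIIIS/J against 178 to 606. Agpat1 read 27.0 in FVB/NJ against 8.60 to 8.64, close to the floor. Lpin2 read 1015 in NZW/LacJ to 3009 in C57BL/6J, and Agpat2 3062 in BALB/CByJ to 6861 in RIIIS/J. Dgat1 (279 to 296) and Dgat2 (2433 to 3233), which make the final ester bond, were even. Of 9 detected lipoprotein export genes none was apart and 2 had a 2-fold spread (11.9% and 30.2% of all detected genes). The 2 were Tm6sf2, at 135 in BALB/CByJ to 510.5 in RIIIS/J, and Apob, at 13752 in NZW/LacJ to 41565 in RIIIS/J.

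**Figure D5:**
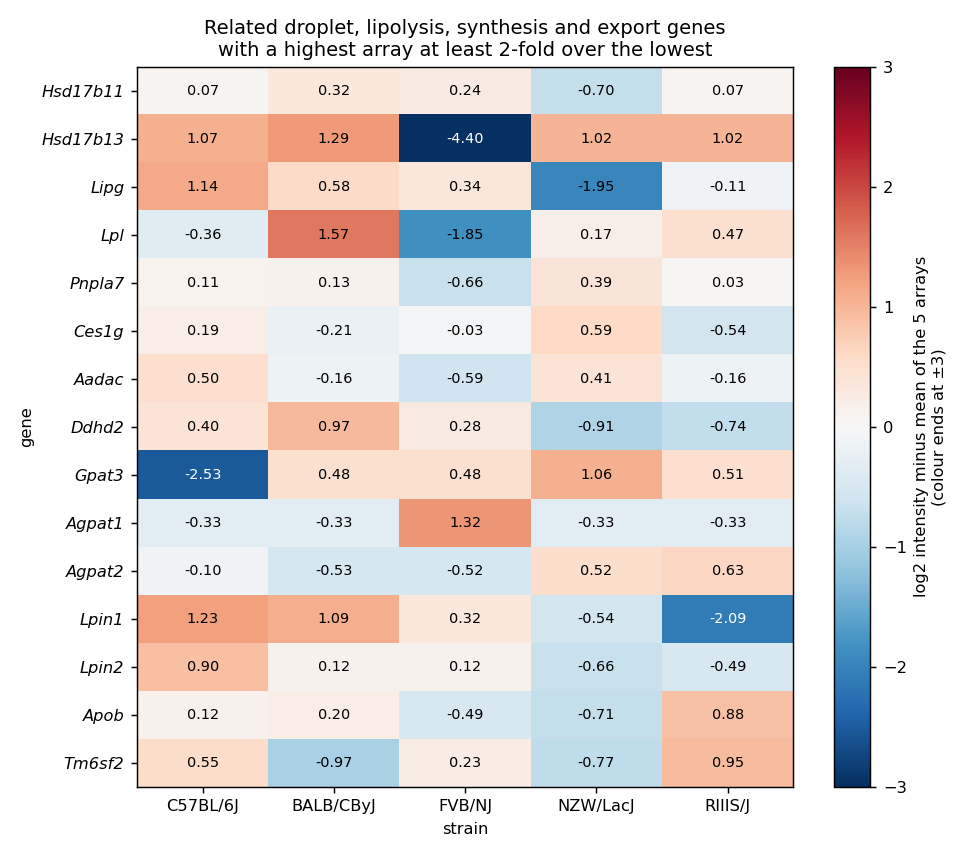
Log2 intensity minus the mean of the 5 arrays for the 15 related genes of droplet, lipolysis, synthesis and export lists whose highest array was at least 2-fold over the lowest, with colours ending at 3 in either direction. Single genes stand out in single strains, such as Hsd17b13 in FVB/NJ (-4.40) and Gpat3 in C57BL/6J (-2.53).

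PPAR-alpha targets were read because Plin2, Plin5 and G0s2 are commonly counted among genes that PPARs regulate. Of 14 detected targets 9 had a spread of at least 2-fold and 4 were apart (30.2% and 11.9% of all detected genes). Cyp4a14, Vnn1 and Cd36 were highest in C57BL/6J, where Cd36, a fatty acid uptake gene, read 1027 against 148 to 467. Pdk4, which restrains glucose oxidation, read 277 in RIIIS/J against 50.8 to 80.0. Acot1, an acyl-CoA thioesterase, had the same order of strains as G0s2, at 374 in C57BL/6J, 132 in BALB/CByJ, 211 in FVB/NJ, 90.7 in NZW/LacJ and 426 in RIIIS/J. Angptl4, a secreted inhibitor of lipoprotein lipase, had another order, with 443 in RIIIS/J and 567 in NZW/LacJ against 970.2 to 1648. In NZW/LacJ 2 of the 14 targets were above the mean of the other strains (median -0.73), beside 4 of the 8 droplet genes (median -0.27), and the median over all detected genes was -0.01. In C57BL/6J 11 of the 14 targets were above it (median 0.38), beside 6 of the 8 droplet genes (median 0.49). The lists parted in other strains. In FVB/NJ 7 of the 14 targets were above it (median -0.009), beside 1 of the 8 droplet genes (median -0.36). In RIIIS/J these were 7 (median -0.006) and 6 (median 0.25), and in BALB/CByJ 7 (median 0.04) and 4 (median 0.08). Any tie between the lists was not tested. Of 12 lipid transcription factors 7 had a spread of at least 2-fold and none was apart (30.2% and 11.9% of all detected genes). Ppara read 2267 in BALB/CByJ to 4172 in C57BL/6J. Pparg, which drives droplet storage, read 84.9 in FVB/NJ and 86.6 in NZW/LacJ against 162 to 217, the same division of strains as for Plin2 and Fitm2.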

How the data were processed

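Liver RNA of 5 strains was measured on 1 array each. Per the submitters' processing notes the authors used GCOS and GCRMA, and the deposited unit is intensity on a linear scale. No version, setting or array batch is given in the sources used here. Equal values on several arrays make small differences uncertain.

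Intensities were converted to log2 with Python 3.11.15, numpy 2.4.6 and pandas 2.3.3. Of 45101 probe sets, 34958 had 1 gene by the platform annotation and 34754 matched the RefSeq gene table (GRCm38.p6), used for names and neighbours. A gene took its probe set with the highest mean, giving 18194 genes. Values under the floor (8.22, or 3.04 on the log2 scale) were set to it ahead of any difference. A gene was called apart when at least 2-fold from the nearest other strain. The steps were checked on simulated data. All 10 genes are named. Of each related list the genes apart in a strain may be named, with up to 4 others of largest spread. Related genes named beyond that rule, for contrast, were chosen after their values were seen. The 10 genes, the related lists and the motifs were chosen with earlier results of these data known. Alternatives were another floor, no floor, quantile normalisation, the mean of probe sets, fewer probe sets, a 4-fold threshold and 1 array left out.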

Additional observations from a re-analysis of the deposited data

How the results depend on the processing

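Under a higher floor, no floor, quantile normalisation, means of probe sets and removal of _s_at, _x_at and _a_at probe sets, the number of genes apart in each strain and direction kept its main value, and that with a 2-fold spread stayed within 1.5 times its own (5 of 6 genes measured in the last of these settings, where Cideb and Pnpla2 had no probe set left). With a 4-fold threshold the genes with such a spread fell from 6 to 2, Fitm1 and G0s2, and the share of all detected genes from 30.2% to 9.48%. Leaving out 1 array at a time, the genes apart and higher in RIIIS/J numbered 0 to 2 (Fitm1 and G0s2 without C57BL/6J, Plin5 without NZW/LacJ). Those lower in NZW/LacJ numbered 0 to 1 (G0s2 without BALB/CByJ), those higher in C57BL/6J 0 to 1 (Fitm1 without RIIIS/J), and those with a 2-fold spread 4 to 6, where the share of all detected genes was 20.02% (without FVB/NJ) to 27.4% (without C57BL/6J). These changes follow from fewer strains to compare with. Of the gaps of single genes 76 kept their side of the threshold, 2 crossed it upward and none changed sign; of the spreads 78 kept it and 8 fell under it. Of the counts of related and marker lists 155 stayed within 1.5 times and 21 did not. No paired analysis was possible because there was 1 array for each strain. Precision is limited by how few arrays there were.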

Other observations

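The genes most like each droplet gene over the 5 arrays were sought among 10495 others detected on all arrays, by the root mean square difference of log2 values after each gene was centred on its own mean. With 5 arrays many genes come close by number alone, so the names are a description. Pnpla2 was nearest to Klf9, a glucocorticoid-responsive transcription factor (difference 0.066), which read 17044 in C57BL/6J, 15864 in BALB/CByJ, 9247 in FVB/NJ, 7342 in NZW/LacJ and 9668 in RIIIS/J, and then to Dennd1a (0.073). Plin2 was nearest to Axin2, a Wnt target (0.073), and to Zfp267 (0.090). Axin2 was weak, at 13.6 to 27.4, under the stricter floor of 28.2 on every array. Plin5 had Nme6 (0.071) and Rabl3 (0.080). Abhd5 had Vmp1 (0.14), an autophagy and droplet biogenesis gene, which read 4392, 6128, 3754, 11357 and 7755 in the same order of strains, and Cbx8 (0.15).

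G0s2 was nearest to Acot1 (0.22) and to Oat, ornithine aminotransferase (0.28), which read 20383 in C57BL/6J, 11687 in BALB/CByJ, 10697 in FVB/NJ, 7536 in NZW/LacJ and 24434 in RIIIS/J. Fitm1 had no close match. Its nearest were Rdh16f2, a retinol dehydrogenase family gene (0.61), at 2158 in C57BL/6J, 96.9 in BALB/CByJ, 566 in FVB/NJ, 305 in NZW/LacJ and 1412 in RIIIS/J, and Mup5, a major urinary protein gene (0.66), at 32.8 in BALB/CByJ against 259 to 306.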
